A study of Homo sapiens with 6 samples.

Results

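Eph receptors are the largest family of receptor tyrosine kinases, and ephrins are their ligands, held on the surface of the neighbouring cell. Binding signals into both cells, so the family mostly acts at contacts between cells, where it controls repulsion, adhesion and sorting into compartments. EphA receptors mainly bind A-type ephrins, which have a lipid anchor, and EphB receptors mainly bind B-type ephrins, which cross the membrane. In the intestinal crypt, EPHB2 and EPHB3 are known targets of beta-catenin and TCF factors, and their ephrin-B ligands lie towards the differentiated cells, which keeps the cell layers in place.

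The genes described here are 10 members of this family: the receptor genes EPHA1, EPHA2, EPHA4, EPHB2, EPHB3 and EPHB4 and the ligand genes EFNA1, EFNA4, EFNB1 and EFNB2. A gene was taken from the expression table when a row, called a transcript cluster, was paired with its symbol alone. This gave 9 of the 10 genes, each with 1 row, among 18417 genes and 19460 such clusters. EPHB2 had no such row and is not analysed here, so EPHB3 and EPHB4 stand for the EphB receptors.

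The cells were AGS, a line from a human gastric adenocarcinoma that carries an activating change in CTNNB1, the gene of beta-catenin. All cultures were grown in the same serum-containing medium. The control siRNA group (3 arrays) received a control siRNA described as non-targeting, the CTNNB1 siRNA group (3 arrays) received siRNA against CTNNB1, and RNA was taken 48 hours after transfection. The study's question was how silencing CTNNB1 changes the mRNA profile of this line. Setting the EphB genes, of which EPHB3 is the measured beta-catenin target, beside the EphA genes is a comparison chosen for this description. It is not stated by the study's labels. Both groups come from 1 line, and the protein was not measured in the data used here.

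Levels are log2 values from Affymetrix Human Gene 1.0 ST arrays after RMA, which normalises the arrays to each other, so a gene can be compared between arrays but not with another gene. CTNNB1 itself stood at log2 expression 11.92, 11.76 and 11.75 on the control arrays and at 10.27, 10.78 and 10.58 on the silenced arrays; values are given here and below in the order of replicates 1 to 3. The groups did not overlap, so the labels matched the silenced gene on every array. CTNNB1 siRNA replicate 1 stood apart: across the 33297 rows its correlation with the other arrays was 0.962 to 0.965, against 0.983 to 0.988 among the rest. Results that rest on it are therefore given with and without it. The labelled cell type was checked against marker genes: 7 of 8 epithelial markers had a row and none was among the dimmest 40% of clusters. Of the 16 measured markers of immune, fibroblast and endothelial cells, 12 were among them. The others were LYZ (mean 12.93 over all arrays), CD68 (8.27), PDGFRA (7.28) and COL1A1 (6.74). LYZ is also a gastric epithelial gene, and why the other markers were not dim was not tested. The mean level of the epithelial list was 9.20 to 9.38 on control arrays and 9.55 to 10.02 on CTNNB1 siRNA arrays, and its part in the results below was not tested.

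The promoters of EPHA2, EFNB2 and EPHB3 are shown because EPHA2 and EFNB2 had the largest positive differences among the 9 genes, and EPHB3 is the measured gene with the best known link to TCF factors. Each sequence is the 250 bases before the annotated start, 5′ to 3′ on the gene's strand, from RefSeq on GRCh38.p14. Capitals mark CTTTG, the core of the TCF/LEF motif, found on either strand. The coordinates are chr1:16156070-16156319 (minus strand) for EPHA2, chr13:106535663-106535912 (minus strand) for EFNB2 and chr3:184561535-184561784 (plus strand) for EPHB3.
EPHA2: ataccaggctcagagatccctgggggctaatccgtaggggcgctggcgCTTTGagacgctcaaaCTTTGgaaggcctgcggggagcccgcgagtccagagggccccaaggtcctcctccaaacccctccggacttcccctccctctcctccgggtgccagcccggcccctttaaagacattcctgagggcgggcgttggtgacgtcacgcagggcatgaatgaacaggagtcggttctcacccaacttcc
EFNB2: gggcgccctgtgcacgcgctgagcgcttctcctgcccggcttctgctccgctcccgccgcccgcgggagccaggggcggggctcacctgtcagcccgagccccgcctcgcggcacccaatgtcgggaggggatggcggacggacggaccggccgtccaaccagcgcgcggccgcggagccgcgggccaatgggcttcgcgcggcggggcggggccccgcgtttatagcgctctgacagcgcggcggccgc
EPHB3: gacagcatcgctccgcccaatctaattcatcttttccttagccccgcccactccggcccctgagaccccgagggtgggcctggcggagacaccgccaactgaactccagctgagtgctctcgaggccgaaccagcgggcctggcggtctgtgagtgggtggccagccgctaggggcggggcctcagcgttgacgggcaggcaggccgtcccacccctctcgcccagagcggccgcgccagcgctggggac
The EPHA2 window held CTTTG at 2 places, starting 202 and 186 bases before the start, and the EFNB2 and EPHB3 windows held none. Of 35116 promoter windows of this length, 42.1% held CTTTG at least once and 12.4% held it at least 2 times, so the letters are common. Single copies lay in the EFNA1 and EFNA4 windows and in 1 of 2 EPHA4 windows. The longer forms CTTTGAA and CTTTGAT each contain the core. They were in no window of the 10 genes, while 5.94% of all windows held one or the other. At that share, their absence from so few windows says little. The windows shown held 63.2% (EPHA2), 78.4% (EFNB2) and 70.0% (EPHB3) G and C, where the median of all windows was 58.0%. A match is a description of letters in this window and not a binding site. In the same RefSeq table EPHA1 and EPHB4 lie on chromosome 7, EPHA4 on chromosome 2, EFNA1, EFNA4 and EPHB2 on chromosome 1 with EPHA2, and EFNB1 on chromosome X.

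EPHA2 (transcript cluster 7912706), a receptor common in carcinoma cells, had the largest difference of the 9 genes. Its log2 expression was 8.62, 9.09 and 8.85 on the control arrays and 9.95, 9.42 and 9.35 on the silenced arrays. Every CTNNB1 siRNA array lay above every control array, with a gap of 0.26 between the groups, and replicate 1 of the CTNNB1 siRNA group was the highest. On arrays of whole cultures, more transcripts per cell and more expressing cells cannot be told apart. The mean went from 8.85 ± 0.24 to 9.57 ± 0.33 (SD, n = 3 each), a log2 difference of 0.72 (SE 0.21), or 1.65-fold (95% interval 1.19 to 2.30). In limma, a linear model that pools the spread of all clusters, the unadjusted p was 0.00821 and the adjusted p over all 19460 clusters was 0.816, so EPHA2 did not pass the threshold of 0.05. Without CTNNB1 siRNA replicate 1 the log2 difference was 0.53 (SE 0.17; limma adjusted p = 0.642).

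The other EphA receptors overlapped between the groups. EPHA1 (transcript cluster 8143575), a receptor of epithelia, read 8.51, 8.42 and 8.14 on the control arrays and 8.34, 8.30 and 8.37 after CTNNB1 siRNA. All CTNNB1 siRNA values lay inside the control range, and the log2 difference was -0.03 (SE 0.15, 95% interval -0.37 to 0.31). EPHA4 (transcript cluster 8059279), which binds ephrins of both classes, read 8.46, 9.19 and 9.05 in controls and 8.70, 8.97 and 8.94 after CTNNB1 siRNA. Here control replicate 1 was the low array, the controls spread more than the silenced arrays (SD 0.39 against 0.14), and the log2 difference was -0.03 (SE 0.21, 95% interval -0.52 to 0.45). The sign of both differences turned in some of the fits with 1 array left out. The limma adjusted p was 0.972 for EPHA1 and 0.978 for EPHA4.

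**Figure D1:**
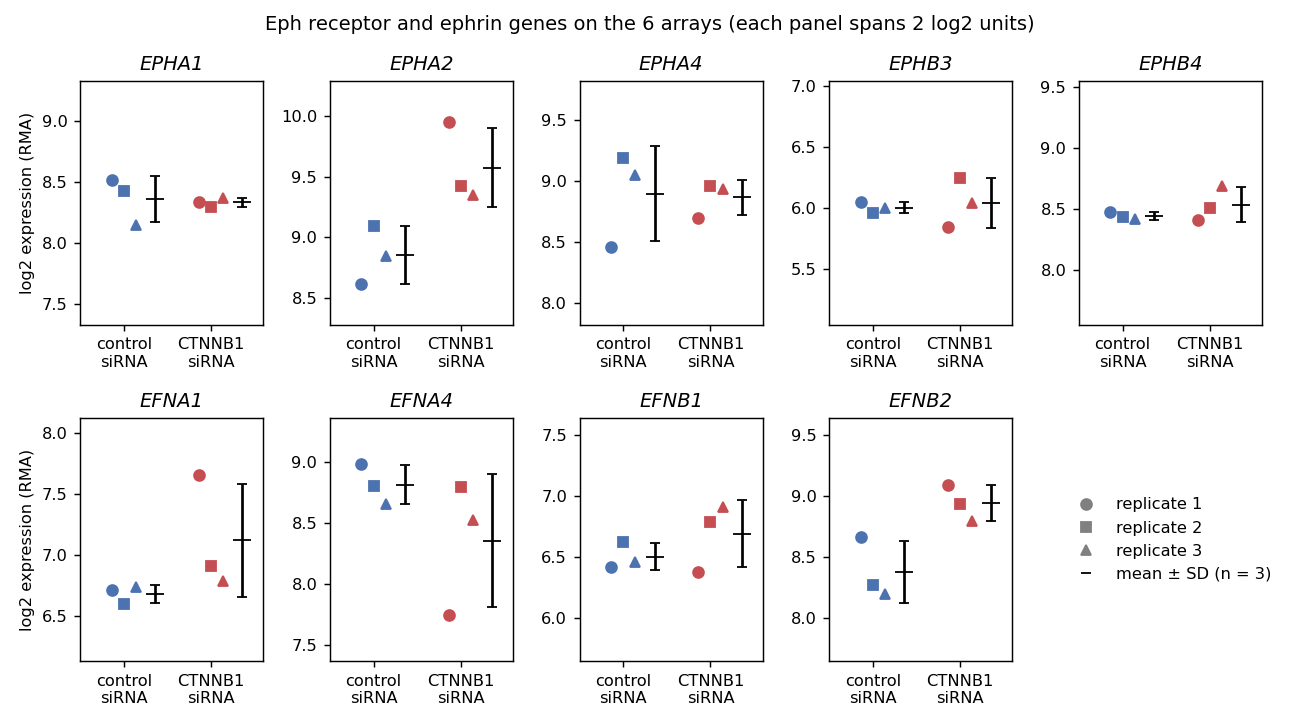
Log2 expression (RMA, vertical axes) of the 9 measured Eph receptor and ephrin genes on each array, by siRNA; marker shapes give the replicate and black bars the mean ± SD of 3 arrays. For EPHA2, EFNA1 and EFNB2 all CTNNB1 siRNA points lie above all control points, and for the other 6 genes the groups overlap.

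EPHB3 (transcript cluster 8084524), the measured receptor known as a beta-catenin and TCF target in the gut, showed little difference. It read 6.05, 5.96 and 6.00 on the control arrays and 5.84, 6.24 and 6.04 on the silenced arrays. The control arrays lay close together, and the CTNNB1 siRNA arrays ran from below them (replicate 1) to above them (replicate 2). The log2 difference was 0.04 (SE 0.15), a 1.03-fold change with a 95% interval of 0.809 to 1.31 (limma adjusted p = 0.960). The interval's lower bound is 80.9% of the control level, read on RMA values, which understate changes of dimmer clusters. The mean of EPHB3 over all arrays was close to the median of the tested clusters (6.02) and above the limit of the dimmest 40% (5.36). Without CTNNB1 siRNA replicate 1, its lowest array, the log2 difference was 0.14 (SE 0.14), and without replicate 2, its highest, it was -0.062.

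EPHB4 (transcript cluster 8141625), a receptor that binds ephrin-B2 above other ligands, read 8.48, 8.44 and 8.42 in controls and 8.41, 8.51 and 8.69 after CTNNB1 siRNA. The groups overlapped through CTNNB1 siRNA replicate 1, which lay just below the controls. The log2 difference was 0.09 (SE 0.14, 95% interval -0.22 to 0.41; limma adjusted p = 0.884), and it was 0.16 (SE 0.13) without that array and 0.019 without CTNNB1 siRNA replicate 3.

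Other genes of the Wnt pathway were read on the same arrays. Of 5 such genes, AXIN2 and LGR5 lay below the control range, where 6.8% of all clusters were lower without overlap. NKD1 and SP5 overlapped with their control ranges, and ASCL2 had a difference near 0. AXIN2, a feedback inhibitor of the pathway, lay at 9.17 to 9.36 on control arrays and 8.72 to 8.96 on CTNNB1 siRNA arrays. Its log2 difference was -0.45 (95% interval -0.77 to -0.13), and -0.52 without CTNNB1 siRNA replicate 1. The stem cell receptor gene LGR5 differed by -0.64 (95% interval -1.16 to -0.13), and by -0.38 without CTNNB1 siRNA replicate 1. NKD1, a pathway inhibitor, differed by -0.49 (SE 0.27), and by -0.27 without that array. The transcription factor gene SP5 differed by -0.30 (SE 0.16), and by -0.39 without it. The crypt factor gene ASCL2, which was among the dimmest 40%, differed by 0.06 (SE 0.18), and by -0.07 without that array. None of these 5 passed over all clusters (limma adjusted p of 0.816 for each but ASCL2, 0.951), and CTNNB1 had 0.232. The mean levels of EPHB3 and EPHB4 were near their control means on arrays where AXIN2 and LGR5 lay below the whole control range. Their single CTNNB1 siRNA arrays ran from below to above the control range. Whether EPHB3 and EPHB4 differed from AXIN2 and LGR5 in their response was not tested.

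The receptor classes were also set side by side as a mean per array, each gene centred on its control mean. The EphA mean of EPHA1, EPHA2 and EPHA4 was -0.17, 0.20 and -0.02 on the control arrays and 0.29, 0.19 and 0.18 on the silenced arrays. These groups overlapped through control replicate 2. The EphB mean of EPHB3 and EPHB4 was 0.04, -0.03 and -0.01 on the controls and -0.10, 0.15 and 0.14 after CTNNB1 siRNA. The EphB mean minus the EphA mean averaged -0.15 ± 0.20 (SD, n = 3) after CTNNB1 siRNA, against a control SD of 0.22 about 0. This difference was smaller than the spread between arrays, and it was -0.04 without CTNNB1 siRNA replicate 1 -0.05 without control siRNA replicate 1 and -0.27 without control siRNA replicate 2. Of the 3 EphA genes, EPHA2 alone had a log2 difference above 0.

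**Figure D2:**
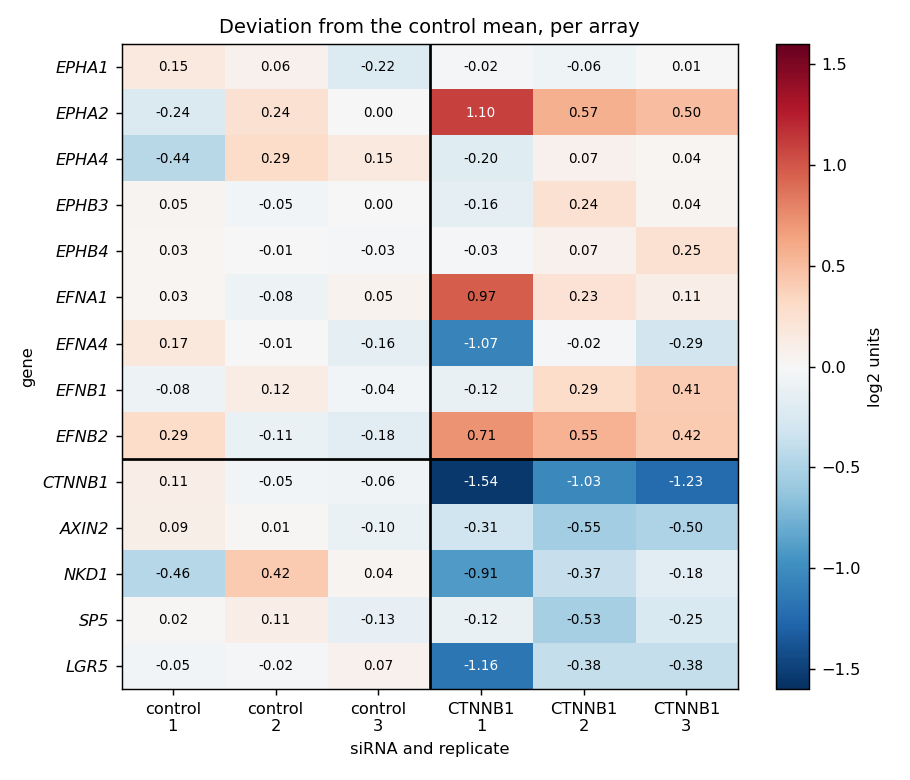
Deviation from the control mean in log2 units (colour and printed value) for 9 Eph receptor and ephrin genes, above the line, and for CTNNB1 and 4 Wnt pathway genes, below it, on each of the 6 arrays. ASCL2, which had a log2 difference of 0.06, is not shown. EPHA2 and EFNB2 are positive on all CTNNB1 siRNA arrays (at least 0.50 and at least 0.42), and EPHB3 and EPHB4 lie between -0.16 and 0.25 there.

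Among the ligands, EFNB2 (transcript cluster 7972713), which encodes ephrin-B2, had the largest difference. It read 8.67, 8.28 and 8.20 on the control arrays and 9.09, 8.93 and 8.80 on the silenced arrays. All CTNNB1 siRNA arrays lay above all controls by at least 0.13, and control replicate 1 was the nearest to them. The mean went from 8.38 ± 0.25 to 8.94 ± 0.15 (SD, n = 3 each), a log2 difference of 0.56 (SE 0.17), or 1.48-fold (95% interval 1.12 to 1.94). It did not pass over all clusters in limma (unadjusted p = 0.0114, adjusted p = 0.816). Its log2 difference was 0.49 (SE 0.17) without CTNNB1 siRNA replicate 1, and 0.47 to 0.71 over the 6 fits that leave out 1 array.

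EFNB1 (transcript cluster 8168045), which encodes the related ephrin-B1, read 6.42, 6.63 and 6.46 in controls and 6.38, 6.79 and 6.91 after CTNNB1 siRNA. Replicates 2 and 3 of the CTNNB1 siRNA group lay above the controls and replicate 1 below them. The log2 difference was 0.19 (SE 0.17; limma adjusted p = 0.830), and 0.35 (SE 0.14; adjusted p = 0.667) without CTNNB1 siRNA replicate 1. It was 0.08 without CTNNB1 siRNA replicate 3.

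EFNA1 (transcript cluster 7905929), a ligand that binds EPHA2 among other EphA receptors, had a difference whose size rested mostly on 1 array. It read 6.71, 6.60 and 6.74 in controls and 7.66, 6.92 and 6.79 after CTNNB1 siRNA. The groups did not overlap, also without replicate 1 of the CTNNB1 siRNA group, but the gap was 0.05. That replicate stood 0.97 above the control mean. The log2 difference was 0.44 (SE 0.23; limma adjusted p = 0.816), and it was 0.17 (SE 0.13; adjusted p = 0.797) without that array.

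EFNA4 (transcript cluster 7905909), another A-type ligand gene, had a negative difference whose size rested mostly on the same array. It read 8.98, 8.81 and 8.66 in controls and 7.75, 8.79 and 8.52 after CTNNB1 siRNA. CTNNB1 siRNA replicate 2 lay among the controls and replicate 1 was 1.07 below the control mean. The log2 difference was -0.46 (SE 0.26; limma adjusted p = 0.816), and -0.16 (SE 0.16; adjusted p = 0.848) without replicate 1. EFNA4, EFNA3 and EFNA1 follow each other on chromosome 1 with no other protein-coding gene between them in the RefSeq order. On CTNNB1 siRNA replicate 1 EFNA1 was above its control range while EFNA4 and EFNA3 were below theirs (EFNA3 read 7.86 there and 7.90 to 8.37 in controls), so these neighbours did not move the same way on that array.

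**Figure D3:**
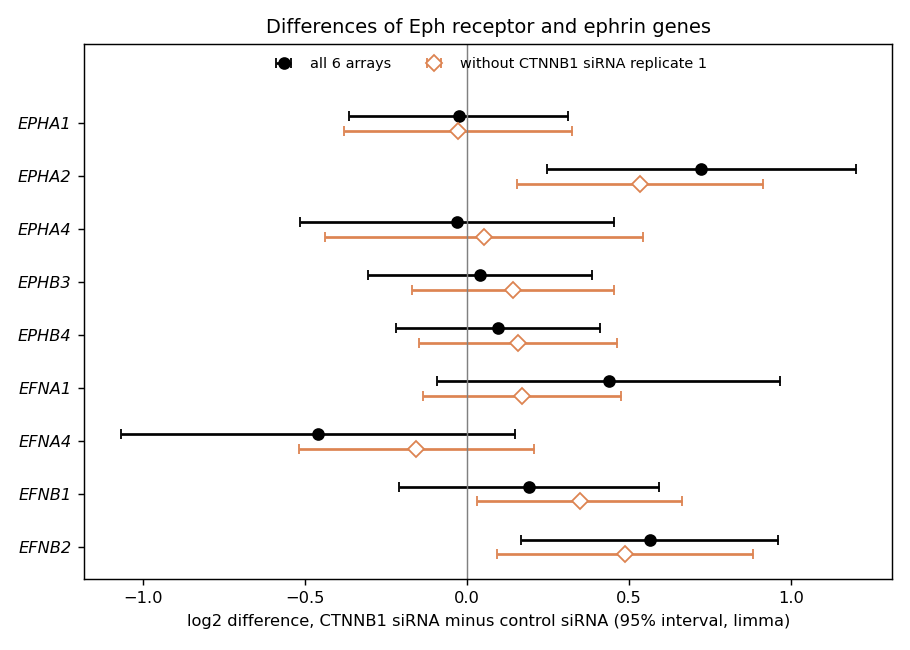
Log2 difference (CTNNB1 siRNA minus control siRNA, horizontal axis) of the 9 genes with its 95% interval from limma, with all 6 arrays (black circles) and without CTNNB1 siRNA replicate 1 (open diamonds). The intervals of EPHA2 and EFNB2 lie above 0 in both fits, and that of EFNB1 lies above 0 only without that array (0.03 to 0.66). Those of the other genes, EPHB3 and EPHB4 among them, span 0 in both. The values of EFNA1 and EFNA4 move towards 0 when that array is left out. The intervals are not adjusted for the number of clusters tested.

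Over the 9 measured genes, 6 were higher and 3 lower after CTNNB1 siRNA, with a median log2 difference of 0.09, against -0.0045 over all 19460 clusters, of which 49.2% were higher. None passed limma's adjusted threshold, as 0.00514% of all clusters did. At an unadjusted limma p under 0.05 there were 2 higher, EPHA2 and EFNB2, and 0 lower, where 3.04% of all clusters were higher and 2.60% lower. The groups did not overlap for 3 genes, all higher, where 6.81% of all clusters were higher without overlap and 6.80% lower. Without CTNNB1 siRNA replicate 1 the groups did not overlap for 5 genes, EFNB1 and EPHB4 in addition, where 13.2% of all clusters were higher without overlap. In each of the other 5 fits that leave out 1 array the higher genes were again EPHA2, EFNA1 and EFNB2, where 9.92% to 11.9% of all clusters were. Lower genes without overlap appeared in 3 of these fits: EPHA4 without control siRNA replicate 1 (12.4% of all clusters lower), EPHA1 and EFNA4 without control siRNA replicate 3 (10.9%) and EFNA4 without CTNNB1 siRNA replicate 2 (12.3%). The smallest 2-sided exact permutation p that 3 arrays against 3 can give is 0.1, and each gene without overlap has that value. EPHA2 and EFNB2 were singled out from the 9 genes by these same values, and neither was called among all genes.

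The remaining 12 genes of the family all had a row, and 7 of them (EPHA3, EPHA5, EPHA6, EPHA7, EPHA8, EPHB1 and EFNB3) belonged to the dimmest 40%, a range in which RMA shrinks differences. None passed limma's adjusted threshold in either direction, and the median log2 difference was 0.03. At an unadjusted limma p under 0.05 there was 1, higher, where 3.04% of all clusters were higher and 2.60% lower. EFNA2, an A-type ligand gene, read 6.80, 6.66 and 6.80 in controls and 7.63, 6.95 and 7.22 on silenced arrays. Its groups did not overlap, and it differed by 0.51 on the log2 scale (SE 0.19; limma adjusted p = 0.816), and by 0.33 (SE 0.15) without CTNNB1 siRNA replicate 1. EFNB3, a B-type ligand gene, differed by 0.24 (SE 0.14), EPHA6 by -0.16 (SE 0.14) and EPHB1 by 0.15 (SE 0.15), all 3 in the dim range. The groups were apart for EFNB3 (by 0.047) and EPHA6 (by 0.0012) and overlapped for EPHB1. Among the 12 genes, 2 were higher without overlap and 1 lower, where 6.81% of all clusters were higher without overlap and 6.8% lower.

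Of 36 genes that act with Eph receptors and ephrins, such as adaptors, kinases and exchange factors, 33 had a row. None passed limma's adjusted threshold in either direction. At an unadjusted limma p under 0.05 there were 0, where 3.04% of all clusters were higher and 2.60% lower. In sign, 15 were higher and 18 lower, where 49.2% of all clusters were higher, and the median log2 difference was -0.07. ADAM10, the protease that cleaves ephrins after receptor binding, read 10.48, 11.06 and 11.10 in controls and 11.11, 11.37 and 11.34 on silenced arrays, and differed by 0.39 (SE 0.20; limma adjusted p = 0.816). Its groups were apart by only 0.0024, with control replicate 1 as the low array. The kinase gene SRC differed by 0.20 (SE 0.13), with its groups apart. The exchange factor gene ARHGEF16 differed by 0.40 (SE 0.26), and by 0.09 without CTNNB1 siRNA replicate 1. GRIP1, a scaffold for B-type ephrins, differed by -0.32 (SE 0.14) in the dim range, with its groups apart by 0.13. Of the 33 partners, 2 were higher without overlap and 1 lower, where 6.81% of all clusters were higher without overlap and 6.8% lower. RASA1, CRK and PAK1 are not analysed here.

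**Figure D4:**
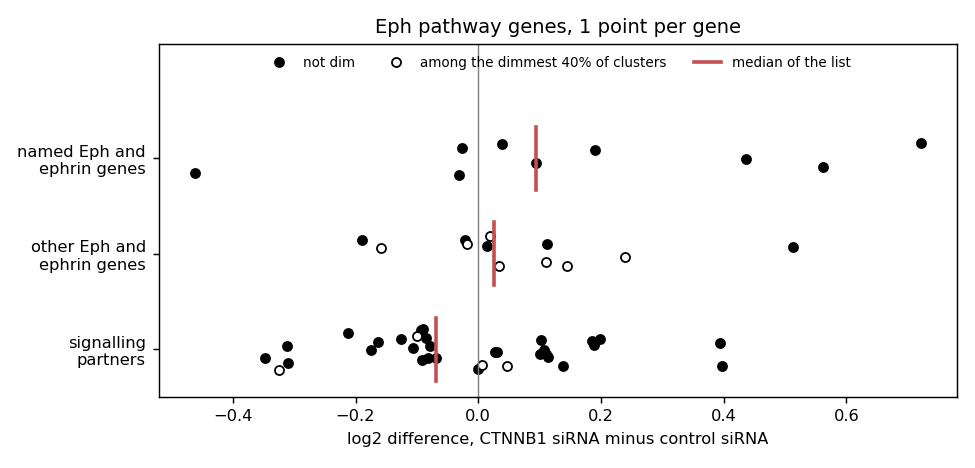
Log2 difference (CTNNB1 siRNA minus control siRNA, horizontal axis) of each gene in 3 lists, with 1 point per gene, open points for genes among the dimmest 40% of clusters and a red line at the list's median; vertical scatter within a list only separates points. The medians are 0.09 for the 9 named genes, 0.03 for the other 12 family genes and -0.07 for the 33 signalling partners, and EPHA2 is the rightmost point.

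The genes whose values over the 6 arrays were most like EPHA2, among 8858 other genes with a mean at or above the median, were ARSA (Pearson r = 0.997), GALNT2 (0.997), MKRN1 (0.995) and MGLL (0.993). Each of these 4 was highest on CTNNB1 siRNA replicate 1 and lowest on control replicate 1, as EPHA2 was. For EPHB3 the most alike of 8859 genes were SFR1 (0.978), CLIP1 (0.971), SECISBP2L (0.962) and RECQL4 (0.962), all lowest on CTNNB1 siRNA replicate 1 and highest on replicate 2. With 6 arrays and so many genes, high values of r are found for any pattern, and these describe which arrays were high or low.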

How the data were processed

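Expression was measured on Affymetrix Human Gene 1.0 ST arrays from 500 ng of total RNA per culture. The authors deposited 1 log2 value for each transcript cluster and array, after RMA, and the submitters' processing notes name Affymetrix Expression Console 1.1 as the software. RMA normalises probe intensities between arrays before clusters are summarised, so the array medians of the deposited values still ranged from 5.38 to 5.46, and it compresses differences of dim clusters. Which genome build and annotation they used is not given in the sources used here.

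The platform's annotation paired 19460 rows with 1 symbol, 1754 with several and 12083 with none, and only the first kind was tested. Where a gene had several rows, the row with the highest mean stood for it. The groups were compared with limma 3.58.1 in R 4.3.3 (lmFit, eBayes, 2-sided, Benjamini-Hochberg, threshold 0.05, no filter, no block). The procedure was first tested on simulated data, without an outlying array and with changes larger than those of the Eph and ephrin genes. That test does not show how well smaller changes are found. The titles number the 3 arrays of a group as biological replicates, and whether these were separate passages or days is not stated. The p-values then measure only how these samples spread, which may be technical. The number of arrays limits the precision. The members and lists were chosen with earlier results of these data known. Named besides the members were CTNNB1, 5 Wnt pathway genes, the 4 genes with the smallest p of each other list, further members of the lists where a result turned on them, and the 4 genes most like EPHA2 and EPHB3. EPHB2 was in the planned EphB mean and in the rule for like genes and is not analysed here.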

Additional observations from a re-analysis of the deposited data

How the results depend on the processing

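None of the 9 genes passed the threshold in any alternative, and 108 of 117 refitted differences kept their sign. Part of these kept it by construction. Testing all rows, leaving out the dimmest 40%, a variance prior with trend and the replicate block cannot change the difference itself. The signs that turned belonged to EPHA1, EPHA4 and EPHB3, all near 0. EPHA1 was 0.026 with array weights and 0.023 when quantile normalised again, and -0.134 to 0.0499 when 1 array was left out. EPHA4 was 0.018 when quantile normalised again and -0.25 to 0.11 when 1 array was left out (0.11 without control siRNA replicate 2, 0.04 without control siRNA replicate 3, 0.05 without CTNNB1 siRNA replicate 1). EPHB3 was -0.062 to 0.14, the lowest without CTNNB1 siRNA replicate 2. The count of clusters past the threshold, 1 in the fit reported, was 13 with array weights and 0 with all rows tested (1569 at an unadjusted limma p under 0.05), with the dimmest 40% left out (670), and 0 to 10 when 1 array was left out (695 to 1428), 10 being without CTNNB1 siRNA replicate 1. With the replicate number as a block it was 0 (1123 at an unadjusted limma p under 0.05); same-numbered arrays' deviations correlated by 0.0922, 0.12 and 0.098, each number best with its own, a hint from the data only. The genes higher without overlap numbered 3 to 5 and those lower 0 to 2 when 1 array was left out, an alternative chosen after seeing the data. The cause of these changes was not tested. Averaging a gene's rows was not run, as each member has 1 row.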
